A study of Saccharomyces cerevisiae with 8 samples.

Results

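A set of 10 genes of budding yeast, Saccharomyces cerevisiae, was followed across the 4 groups of an RNA-seq series. They encode the enzymes that pass electrons from NADH, glycerol 3-phosphate, lactate and the electron transfer flavoprotein into the mitochondrial respiratory chain, or to a partner of the cytochrome b5 type. They were taken by systematic name from the deposited count table and make up 10 of its 7122 features: NDI1 (YML120C), NDE1 (YMR145C), NDE2 (YDL085W), GUT2 (YIL155C), CIR1 (YGR207C), AIM45 (YPR004C), CIR2 (YOR356W), CYB2 (YML054C), DLD1 (YDL174C) and MCR1 (YKL150W). All 10 passed the filter on low counts. Each group had 2 biological replicates, stated as such in the series design. The groups were clioquinol (CQ, a metal-binding hydroxyquinoline) at 0.8 µM, the active dihydropyrimidine-thione 10{3,3,1} at 20 µM, the inactive thione 11 at 20 µM, and the DMSO solvent. All cultures were of strain W303 lacking pdr1 and pdr3, the genes of a pair of regulators of drug-efflux pumps, and were in log phase in galactose medium, with about 6 h of treatment. The growth protocol calls the yeast wild-type and gives the concentrations in millimolar; the micromolar values of the series design and sample characteristics and the strain of the characteristics are used here. Bulk RNA was measured, so fewer cells holding a transcript and less transcript per cell cannot be told apart.

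Budding yeast has no proton-pumping NADH dehydrogenase complex. Flavoproteins of a single chain take its place: Ndi1 faces the matrix, and Nde1 and Nde2 face the intermembrane space, and all 3 hand electrons to ubiquinone. Gut2 does the same for glycerol 3-phosphate, as part of a shuttle that moves cytosolic reducing power to the respiratory chain. Cir1 and Aim45 are the beta and alpha subunits of the electron transfer flavoprotein, and Cir2 is its ubiquinone oxidoreductase, which carries an iron-sulfur cluster beside its flavin. Cyb2, which oxidises L-lactate and holds haem as well as flavin, and Dld1, which oxidises D-lactate, give electrons to cytochrome c. Mcr1 is the mitochondrial NADH-cytochrome b5 reductase. Every enzyme of the group uses flavin, while Cir2 and Cyb2 also use iron.

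The transcripts of NDI1, CIR2 and CYB2 differed most between CQ and DMSO, and the bases after their stop codons share a motif that the other 7 genes lack, so these sites are shown. The 7 letters TATTTAT, with U for T in the RNA, are the core of AU-rich elements, which in yeast are bound by Tis11 (also called Cth2), a protein known for speeding the decay of messages when iron is short. The motif was searched on the coding strand in the 300 bases after each stop codon of the R64 genome, the RefSeq assembly that corresponds to sacCer3. Capitals mark the motif, and 9 bases are shown on each side.
NDI1 match 1: atgttttatTATTTATatattccca
NDI1 match 2: atctgtgatTATTTATttcttcctc
CIR2 match 1: aggattcatTATTTATttaattatt
CIR2 match 2: tttattcatTATTTATttaaatttt
CIR2 match 3: aatctatatTATTTATtcacgtaaa
CYB2 match 1: aaaacttttTATTTATtcatacata
CYB2 match 2: acacatataTATTTATgtttataga
CYB2 match 3: tttatacatTATTTATtcatttttt
NDI1 lies on the minus strand at chrXIII:28266-29807, and the stretches shown are chrXIII:28103-28127 and chrXIII:27981-28005, with motifs that begin 148 and 270 bases after the stop codon. CIR2 lies on the plus strand at chrXV:1007221-1009116, with shown stretches at chrXV:1009121-1009145, chrXV:1009145-1009169 and chrXV:1009189-1009213, whose motifs begin 14, 38 and 82 bases after the stop codon. CYB2 lies on the minus strand at chrXIII:165533-167308, with shown stretches at chrXIII:165481-165505, chrXIII:165388-165412 and chrXIII:165314-165338, whose motifs begin 37, 130 and 204 bases after the stop codon. The motif of CYB2 match 3 reaches into the end of SPC2, the gene that faces it on the other strand. At least 1 match stood in 3 of the 10 genes, against 1021 of 5997 nuclear genes scanned, or 17.03%. The annotation holds no untranslated regions, so whether each transcript reaches its matches was not tested.

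The promoters of these 3 genes and of NDE2, the gene that rose, are shown as the 300 bases before the start codon. Capitals mark CCAAT, or its complement where the motif lies on the other strand. CCAAT is the core bound by the Hap2/3/4/5 activator of respiratory genes.
NDI1 promoter: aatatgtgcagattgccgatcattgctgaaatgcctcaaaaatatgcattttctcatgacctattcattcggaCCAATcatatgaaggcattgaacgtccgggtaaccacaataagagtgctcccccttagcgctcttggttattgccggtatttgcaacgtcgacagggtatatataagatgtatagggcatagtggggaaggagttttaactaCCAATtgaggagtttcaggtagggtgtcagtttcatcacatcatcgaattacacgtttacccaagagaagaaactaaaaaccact
CIR2 promoter: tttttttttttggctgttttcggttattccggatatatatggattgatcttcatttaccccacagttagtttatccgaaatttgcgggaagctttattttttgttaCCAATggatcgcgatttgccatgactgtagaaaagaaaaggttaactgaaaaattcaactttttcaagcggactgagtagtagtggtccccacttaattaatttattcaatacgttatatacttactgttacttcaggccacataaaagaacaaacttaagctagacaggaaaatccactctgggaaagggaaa
CYB2 promoter: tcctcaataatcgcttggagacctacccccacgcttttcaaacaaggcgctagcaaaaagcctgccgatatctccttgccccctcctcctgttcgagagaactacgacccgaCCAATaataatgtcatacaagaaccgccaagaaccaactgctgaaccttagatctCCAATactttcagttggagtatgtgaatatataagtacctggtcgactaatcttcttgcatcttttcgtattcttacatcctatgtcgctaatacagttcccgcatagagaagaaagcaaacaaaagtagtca
NDE2 promoter: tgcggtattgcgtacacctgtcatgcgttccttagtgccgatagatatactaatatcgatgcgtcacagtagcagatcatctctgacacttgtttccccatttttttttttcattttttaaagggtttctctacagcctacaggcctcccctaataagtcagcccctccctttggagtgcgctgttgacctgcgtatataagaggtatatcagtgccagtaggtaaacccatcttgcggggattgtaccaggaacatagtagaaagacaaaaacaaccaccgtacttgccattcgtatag
These lie at chrXIII:29808-30107 for NDI1 (minus strand), chrXV:1006921-1007220 for CIR2 (plus strand), chrXIII:167309-167608 for CYB2 (minus strand) and chrIV:302911-303210 for NDE2 (plus strand). Within 500 bases before the start codon CCAAT occurred in 9 of the 10 genes, with NDE2 the exception, and in 62.4% of all 6000 genes scanned. The Aft1/Aft2 core TGCACCC, found in 2.33% of those genes, matched none of the 10 on either strand. A match or its absence describes these letters alone.

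Library totals ran from 12076141 to 19021672 counts, and 6046 to 6136 features were detected per library. PDR1 and PDR3 had 0 counts in all 8 libraries and so match the strain label; 0 counts in the smallest library leave room for 0.248 CPM (library-scaled counts) of its raw total, a limit for counting error only. All other CPM values use totals scaled with TMM factors. Of 4 galactose genes 0 passed in CQ against DMSO in edgeR with 1 term per group. GAL7 had an unadjusted edgeR p of 0.0158 and passed in DESeq2, and 1 of the 4 fell in edgeR with a term for the replicate number. Their summed levels were 18010 and 26700 CPM with CQ and 21400 and 23420 CPM in DMSO. Of 6 stationary-phase markers 3 rose (HSP26, GRE1 and SSA3) and CTT1 fell, with summed levels of 195.6 and 270.3 CPM with CQ and 175.0 and 204.8 CPM in DMSO. SSA3 lost its call in 5 of the 8 fits without a library. All 4 alpha-cell markers fell, with summed levels of 543.7 and 861.1 CPM with CQ and 1844 and 1503 CPM in DMSO. Without 1 library 2 to 4 of them fell: MF(ALPHA)1 lost its call without DMSO replicate 1, and STE3 lost it without CQ replicate 1, inactive thione replicate 1 or either DMSO replicate. Of the 4 a-cell markers, MFA1 and MFA2 had at most 0.276 CPM in any library, and STE2 (3.69 to 5.40 CPM) and BAR1 (1.72 to 3.56 CPM) were detected and did not pass in CQ against DMSO. Over all 5696 tested features 8.39% were lower and 4.92% higher in CQ against DMSO. The part of the marker shifts in the results below was not tested.

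Per kilobase of coding length, the 10 transcripts covered a wide range of levels, in an order that differed between CQ and DMSO. With CQ, NDE1 had a mean of 498 CPM per kb and MCR1 304. GUT2 (187), AIM45 (129), CIR1 (101) and DLD1 (48.7) followed, then NDE2 (15.02), NDI1 (5.74), CYB2 (4.71) and CIR2 (2.19). Of neighbours in this order, the CQ libraries of NDE1 and MCR1, of MCR1 and GUT2, and of NDI1 and CYB2 overlapped, and the other neighbours did not. In DMSO, NDE1 (810 CPM per kb), MCR1 (610), AIM45 (168), NDI1 (135), GUT2 (122), CIR1 (103), DLD1 (87.4), CIR2 (83.9) and CYB2 (58.3) preceded NDE2, which stood last at 5.92 CPM per kb. Here the libraries of NDI1 and GUT2, of GUT2 and CIR1, and of DLD1 and CIR2 overlapped. GUT2 thus stood above AIM45 with CQ and below it in DMSO. Its mean was also above that of AIM45 with the inactive thione (196 and 170 CPM per kb), where their libraries overlapped. With the active thione it was below (119 and 186). The libraries of NDE2 stood above those of NDI1 with CQ and below them in the other 3 groups. With either thione NDE1 and MCR1 again led and NDE2 was last.

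**Figure D1:**
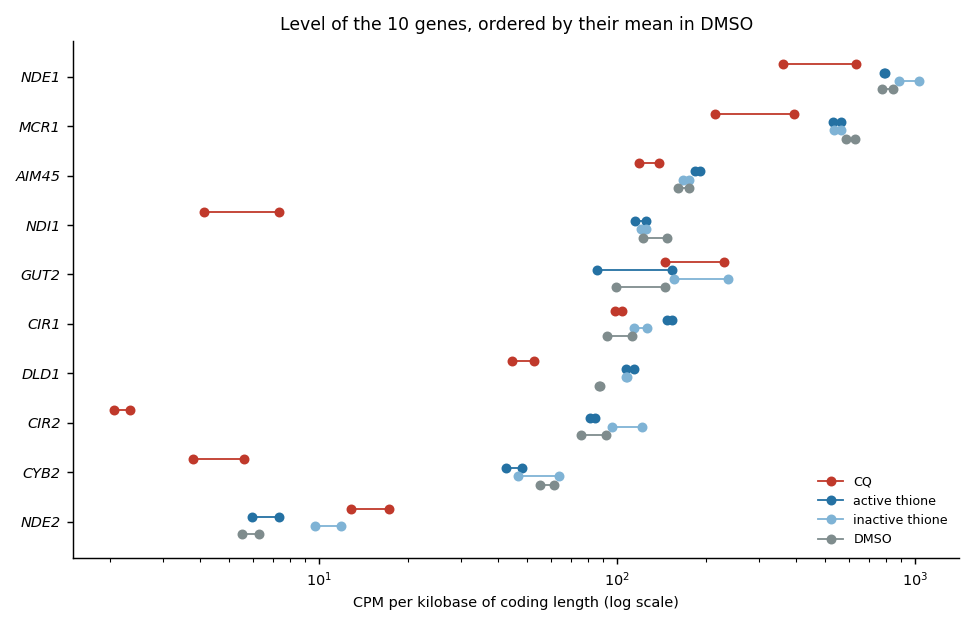
Level of each gene in CPM per kilobase of coding length (log axis); points are libraries and lines join the 2 libraries of a group. NDI1, CIR2 and CYB2 sit below 10 CPM per kb with CQ and above 40 CPM per kb in the other 3 groups.

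In CQ against DMSO, 5 of the 10 genes fell and 1 rose, and 4 did not pass (edgeR quasi-likelihood test, adjusted p below 0.05). Over all 5696 tested features 13.3% passed in that comparison, 8.39% lower and 4.92% higher. The genes that fell were CIR2, NDI1, CYB2, MCR1 and DLD1, and the gene that rose was NDE2. The falls were of unequal size: 38.1-fold, 23.7-fold and 12.5-fold for CIR2, NDI1 and CYB2, and 2.01-fold and 1.80-fold for MCR1 and DLD1. The median log2 fold change over the 10 genes was -0.77, against 0.03 over all tested features. In 8 of the 10 genes the CQ and DMSO libraries did not overlap, as in 57.1% of all tested features.

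Among the NADH dehydrogenases, NDI1 fell, NDE2 rose and NDE1 did not pass. NDI1, the matrix-side enzyme, had 6.36 and 11.3 CPM with CQ, 178 and 194 with the active thione, 193 and 185 with the inactive thione, and 228 and 189 in DMSO. Both CQ libraries lay far below the other 6, which overlapped among themselves. Its log2 fold change in CQ against DMSO was -4.57 ± 0.26 (SE), with an edgeR adjusted p of 2.76e-06. The fall of NDI1 passed under all 13 alternative settings.

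NDE1, the main outward-facing enzyme by level, had 1070 and 606 CPM with CQ, 1335 and 1326 with the active thione, 1491 and 1740 with the inactive thione, and 1419 and 1308 in DMSO. Both CQ libraries were the lowest of the 8, and they differed from each other by more than the replicates of any other group. The log2 fold change of -0.70 ± 0.24 (SE) did not pass (edgeR adjusted p = 0.0939). It did pass without CQ replicate 1, at -1.18 with an edgeR adjusted p of 0.0066, and in DESeq2 (adjusted p = 0.0206).

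NDE2, the other outward-facing enzyme, had 21.0 and 28.2 CPM with CQ, 9.80 and 12.1 with the active thione, 15.97 and 19.5 with the inactive thione, and 9.07 and 10.3 in DMSO. The CQ libraries were the highest, and those of the inactive thione came next, above both DMSO libraries. In CQ against DMSO NDE2 rose by 1.34 ± 0.23 on the log2 scale (SE, edgeR adjusted p = 0.00374), or 2.54-fold. Without DMSO replicate 1 the value was 1.25 and no longer passed (edgeR adjusted p = 0.0546).

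Per kilobase, NDE1 exceeded NDE2 in every library, by 49.7 and 20.9 times with CQ, 133 and 107 times with the active thione, 90.9 and 86.8 times with the inactive thione, and 152 and 124 times in DMSO. The CQ ratios were the lowest of the 8. Within the pair NDE2 thus made up 1.97% and 4.57% with CQ, against 0.653% and 0.803% in DMSO.

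GUT2, the glycerol 3-phosphate dehydrogenase, had 282 and 447 CPM with CQ, 168 and 298 with the active thione, 303 and 461 with the inactive thione, and 193 and 284 in DMSO. The CQ libraries overlapped those of DMSO, and in each group replicate 1 was the lower, by 0.55 to 0.83 on the log2 scale. The log2 fold change of 0.61 ± 0.33 in CQ against DMSO (SE) did not pass (edgeR adjusted p = 0.26), and its 95% interval ran from -0.14 to 1.36. It did pass with a term for the replicate number (0.60, edgeR adjusted p = 0.0119), although the samples were not taken as paired. The gene lies at chrIX:51759-53708 on the minus strand.

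**Figure D2:**
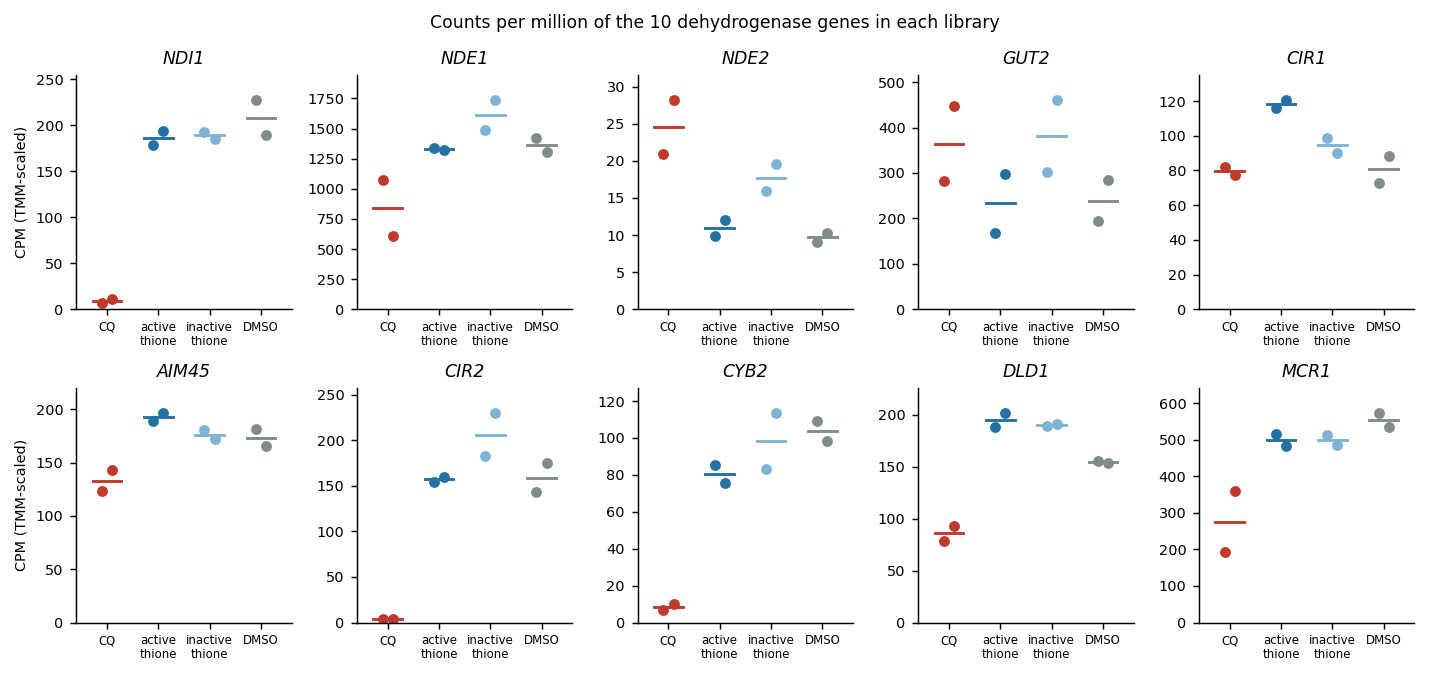
TMM-scaled CPM of the 10 genes by group, with a linear axis per gene that starts at 0; points are the 2 libraries and lines their mean. NDI1, CIR2 and CYB2 lie near the axis with CQ (at most 11.3 CPM), and NDE2 is highest with CQ.

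Within the electron transfer flavoprotein system, the oxidoreductase fell while both flavoprotein subunits did not pass. CIR2, the ubiquinone oxidoreductase, had 4.42 and 3.89 CPM with CQ, 154 and 160 with the active thione, 183 and 230 with the inactive thione, and 143 and 175 in DMSO. These CQ values rest on 82 and 58 counts, against 2654 and 2240 counts in DMSO. CQ and DMSO were separated by a log2 fold change of -5.25 ± 0.21 (SE, edgeR adjusted p = 3.77e-07), and the fall passed under all 13 alternatives.

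AIM45, the alpha subunit, had 123 and 143 CPM with CQ, 189 and 197 with the active thione, 180 and 172 with the inactive thione, and 181 and 166 in DMSO. Both CQ libraries were below the other 6, by a margin that did not pass against DMSO (-0.38 ± 0.14, SE, edgeR adjusted p = 0.0975). Without CQ replicate 2 it passed at -0.53 (edgeR adjusted p = 0.0327). CIR1, the beta subunit, had 81.8 and 77.5 CPM with CQ, 116 and 121 with the active thione, 98.9 and 90.0 with the inactive thione, and 72.8 and 88.5 in DMSO. Its CQ libraries lay between those of DMSO, with a log2 fold change of -0.02 (95% interval -0.34 to 0.31, edgeR adjusted p = 0.956). The levels of CIR1 per kilobase were 0.874 and 0.714 times those of AIM45 with CQ and 0.529 and 0.702 times in DMSO. Those of CIR2 were 0.0196 and 0.0149 times those of AIM45 with CQ and 0.432 and 0.576 times in DMSO. The ratio of the oxidoreductase to the subunit was thus far lower in both CQ libraries than in either DMSO library. The ratio of the subunits was higher in both CQ libraries, but by little in replicate 2 (0.714) against DMSO replicate 2 (0.702). That ratio was 0.809 and 0.809 with the active thione and 0.723 and 0.687 with the inactive thione, so a higher value was not particular to CQ. AIM45 lies at chrXVI:564007-565041 and CIR1 at chrVII:910843-911628, each on the minus strand.

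Of the lactate dehydrogenases, both fell, CYB2 further. CYB2, the L-lactate enzyme with haem, had 6.73 and 9.99 CPM with CQ, 85.4 and 75.4 with the active thione, 83.1 and 114 with the inactive thione, and 109 and 98.2 in DMSO. The log2 fold change in CQ against DMSO was -3.64 ± 0.23 (SE), with an edgeR adjusted p of 6.82e-06. DLD1, the D-lactate enzyme at chrIV:145826-147589 on the minus strand, had 78.8 and 92.9 CPM with CQ, 189 and 202 with the active thione, 189 and 191 with the inactive thione, and 155 and 153 in DMSO. Its CQ libraries were the lowest and its DMSO libraries lay below all 4 thione libraries. DLD1 fell by 0.85 on the log2 scale (SE 0.14, edgeR adjusted p = 0.00257). Both falls passed under all 13 alternatives. Per kilobase CYB2 stood at 0.0849 and 0.107 of the DLD1 level with CQ and at 0.698 and 0.636 in DMSO.

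MCR1, the NADH-cytochrome b5 reductase at chrXI:166544-167452 on the plus strand, had 194 and 359 CPM with CQ, 515 and 482 with the active thione, 513 and 487 with the inactive thione, and 573 and 536 in DMSO. The CQ libraries were the lowest of the 8 and stood apart from each other. MCR1 fell by 1.01 on the log2 scale (SE 0.25, edgeR adjusted p = 0.0252). This call was lost without CQ replicate 1 (-0.64, edgeR adjusted p = 0.0569), without DMSO replicate 1 (-0.96, 0.128), without DMSO replicate 2 (-1.05, 0.0853) and with the CQ and DMSO libraries alone (edgeR adjusted p = 0.0843).

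Summed over the 10 genes per kilobase, the mean level was 1296 CPM per kb with CQ and 2184 CPM per kb in DMSO. The quinone-reducing enzymes NDI1, NDE1, NDE2 and GUT2 together had 798 and 614 CPM per kb with CQ and 1096 and 1052 in DMSO. The flavoprotein system, in which CIR2 also reduces ubiquinone, had 225 and 239 with CQ and 343 and 365 in DMSO. The cytochrome c donors CYB2 and DLD1 had 48.4 and 58.3 CPM per kb with CQ and 149 and 142 in DMSO. Each of these sums was lower in both CQ libraries than in either DMSO library, although NDE2 rose and GUT2 and CIR1 had fold changes on either side of 0. The largest terms of the sum over the 10 were NDE1 (498 CPM per kb with CQ and 810 in DMSO) and MCR1 (304 and 610). NDE1 did not pass in CQ against DMSO, and MCR1 lost its call under 4 of the 13 alternatives. The sums themselves were not tested.

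**Figure D3:**
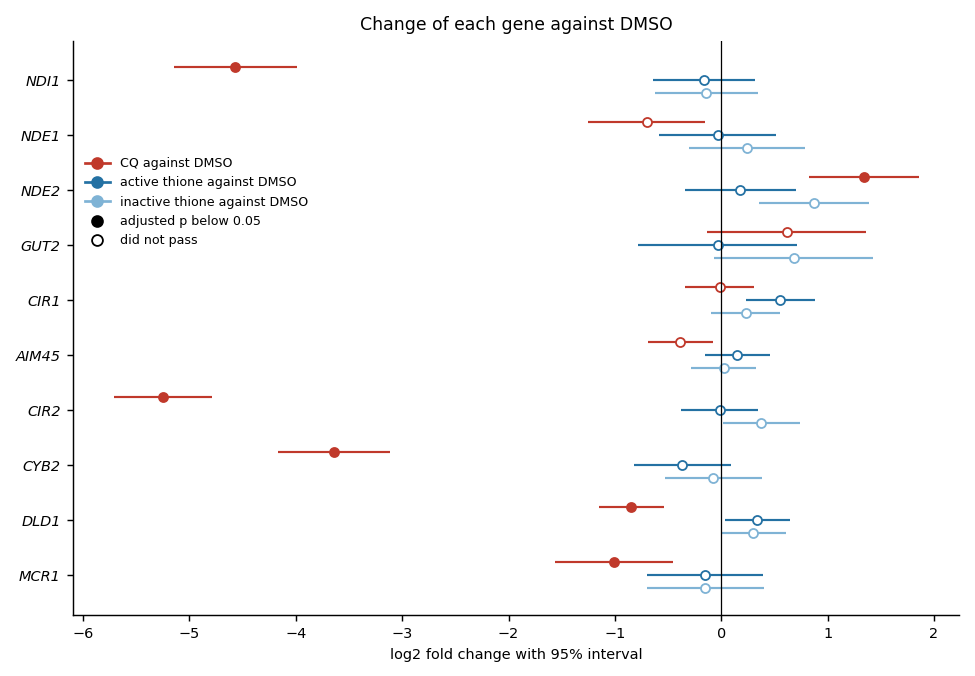
Log2 fold change of each gene against DMSO with its 95% interval from the edgeR fit, for CQ, the active thione and the inactive thione; filled points passed the adjusted threshold. All filled points belong to CQ, with NDI1 (-4.57), CIR2 (-5.25) and CYB2 (-3.64) far to the left and NDE2 (1.34) to the right.

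The 3 genes with TATTTAT after the stop codon were those that fell more than 12-fold, while DLD1 and MCR1 fell about 2-fold without a match. Across all tested nuclear genes, the share that fell in CQ against DMSO was 5.03% of the 4537 genes with 0 matches, 18.3% of the 794 with 1, 44.3% of the 140 with 2 and 78.7% of the 47 with 3 or more. Of the 42 genes with a log2 fold change below -3, 40 held at least 1 match. With the active thione 15 of all 5518 such genes fell against DMSO, or 0.272%. The shares by number of matches were 0.287%, 0.252%, 0% and 0%. Falls this few cannot show whether the share depended on the number of matches. The median log2 fold changes of genes with 0, 1, 2 and 3 or more matches were 0.067, -0.123, -0.516 and -1.92 in CQ against DMSO. With the active thione against DMSO they were 0.031, 0.038, 0.026 and 0.084. With the inactive thione against DMSO they were 0.029, 0.051, 0.049 and 0.129. TIS11, whose product binds such elements, had 262.6 and 280.6 CPM with CQ, 9.80 and 14.8 with the active thione, 1.503 and 2.53 with the inactive thione, and 1.84 and 2.42 in DMSO. Its log2 fold change in CQ against DMSO was 7.01 ± 0.29 (SE, edgeR adjusted p = 4.55e-07). HAP4, the regulated subunit of the CCAAT-binding activator, had 64.3 and 61.6 CPM with CQ and 327 and 286 in DMSO, and fell by 2.28 on the log2 scale (SE 0.17, edgeR adjusted p = 1.83e-05). What part either regulator has in the changes of the 10 genes was not tested.

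**Figure D4:**
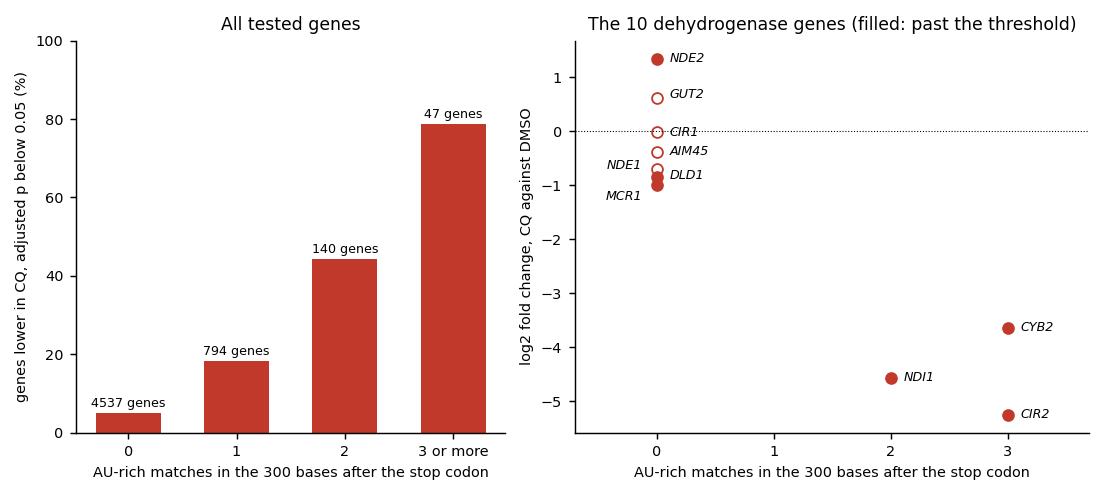
Left, percent of tested genes that fell in CQ against DMSO by the number of TATTTAT matches in the 300 bases after the stop codon, with the number of genes above each bar; right, log2 fold change of the 10 genes by the same number, filled where the test was passed. The share that fell is 5.03% with 0 matches and 78.7% with 3 or more, and NDI1, CIR2 and CYB2 are the 3 genes with matches.

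Neither thione changed any of the 10 genes past the threshold. In active thione against DMSO 0 of 10 passed in edgeR and 0 in DESeq2, against 1.37% of all features in edgeR. An unadjusted p below 0.05 was reached by 13.8% of all features and by 2 of the 10 genes. These were CIR1, at 0.56 on the log2 scale (95% interval 0.23 to 0.88, edgeR adjusted p = 0.126), and DLD1, at 0.34 (0.04 to 0.64, adjusted p = 0.309). Both active thione libraries lay above both DMSO libraries in each of these genes. For NDI1, CIR2 and CYB2 the intervals were -0.65 to 0.32, -0.38 to 0.35 and -0.82 to 0.09. All 3 intervals lie above those of the same genes with CQ.

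In inactive thione against DMSO 0 of 10 passed in edgeR and 0 in DESeq2, against 0.158% of all features in edgeR. Again 2 of the 10 had an unadjusted p below 0.05, where 13% of all features did. NDE2 had a log2 fold change of 0.87 (95% interval 0.36 to 1.39, edgeR adjusted p = 0.279) and CIR2 had 0.38 (0.01 to 0.74, adjusted p = 0.381). GUT2, with the widest interval of the 10, had 0.68 (-0.07 to 1.43). The comparisons of each treatment with DMSO share the same DMSO libraries.

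The thiones were given at the same dose and for the same time, and the direct test between them found no difference past the threshold in any of the 10 genes (0 of 10 in edgeR and in DESeq2, against 0.123% of all features in edgeR). An unadjusted p below 0.05 was reached by 3 of the 10 genes and by 3.7% of all features. NDE2 was lower with the active than with the inactive thione, at -0.69 (95% interval -1.21 to -0.18), as was CIR2 at -0.39 (-0.76 to -0.03), and CIR1 was higher at 0.33 (0.0022 to 0.65). The lowest edgeR adjusted p of the 10 was 0.963. The interval of GUT2, -1.46 to 0.04, allows a difference of more than 2-fold, so the test does not show that the compounds act alike on it.

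CQ and the thiones were given at different doses, 0.8 and 20 µM. In CQ against active thione 7 of the 10 genes were lower and NDE2 was higher by 1.16 on the log2 scale, where 12.4% of all features were lower and 4.6% higher. NDI1, CIR2, CYB2 and DLD1 (-4.41, -5.24, -3.27 and -1.19) were lower under every alternative. AIM45 (-0.54), CIR1 (-0.57) and MCR1 (-0.85) were also lower, but these 3 calls ended without CQ replicate 1 and without either active thione replicate. Those of AIM45 and MCR1 ended without either DMSO replicate as well, and that of MCR1 without either inactive thione replicate. MCR1 had -0.46 without CQ replicate 1. NDE1 (-0.67) did not pass, and passed without CQ replicate 1 (-1.12, edgeR adjusted p = 0.00676) and in DESeq2 (-0.65, adjusted p = 0.0354). NDE2 lost its call without active thione replicate 1 (1.03, edgeR adjusted p = 0.0575). In CQ against inactive thione 6 genes were lower (NDI1, NDE1, CIR2, CYB2, DLD1 and MCR1), where 10.1% of all features were. The calls of NDE1 (-0.95) and MCR1 (-0.86) each ended in 7 of the 8 fits without a library; NDE1 kept its call only without CQ replicate 1 and MCR1 only without CQ replicate 2. Without CQ replicate 2 NDE1 had -0.60, and without CQ replicate 1 MCR1 had -0.46. NDE2 had 0.47 there and did not pass (edgeR adjusted p = 0.222).

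The rest of the pathway in CQ against DMSO was read from lists of genes that share a substrate, partner or cofactor with the 10. Beside the counts of each list stand 8.39% lower and 4.92% higher over all 5696 tested features. Of the other dehydrogenases that reduce ubiquinone, all 5 fell, and their median was -4.19 on the log2 scale. SDH2, the iron-sulfur subunit of succinate dehydrogenase, had 17.9 and 15.1 CPM with CQ and 429 and 533 in DMSO (-4.86 ± 0.23, SE, edgeR adjusted p = 9.24e-07). The flavoprotein subunit SDH1 had a log2 fold change of -4.19 and SDH4, a membrane anchor, of -4.10. PUT1, the proline dehydrogenase, fell by 1.39 and was the gene of the 5 with no TATTTAT match.

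Downstream of the 10 enzymes, 20 of 21 genes of cytochrome bc1, cytochrome c and cytochrome c oxidase fell, with a median of -4.02. CYC1, the main cytochrome c, had a log2 fold change of -6.55, CYT1, cytochrome c1, of -5.59 and QCR7, a bc1 subunit, of -4.33. COX5B, the alternative form of a cytochrome c oxidase subunit, had -0.13, did not pass and was also the gene of the list without a match. Both of these counts were the same in each fit without 1 library. Genes of ubiquinone synthesis shifted less: COQ6 and COQ2 fell (-1.02 and -0.62) and 9 of 11 did not pass. COQ6 lost its call without DMSO replicate 2 (-0.85, edgeR adjusted p = 0.0982), and COQ2 lost it in 6 of the 8 fits without a library, keeping it without CQ replicate 1 and without inactive thione replicate 2.

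Genes that act on the same substrates moved in different ways. In glycerol metabolism GPP2, a glycerol 3-phosphatase, rose by 0.54 and 7 of 8 tested genes did not pass; GPP2 lost its call without CQ replicate 2, either DMSO replicate or either inactive thione replicate. Among the lactate and 2-hydroxyglutarate genes, DLD2, a mitochondrial 2-hydroxyglutarate dehydrogenase, fell by 1.28 on the log2 scale, while its cytosolic relative DLD3 (-0.44) and the lactate permease JEN1 (0.17) did not pass. In the cytochrome b5 list CYB5, cytochrome b5 itself, had 22.1 and 23.7 CPM with CQ and 657 and 523 in DMSO (-4.69 ± 0.41, SE, edgeR adjusted p = 4.41e-05). AIM33 also fell, by 2.02, and NCP1, the cytochrome P450 reductase, rose by 1.37, a call lost without DMSO replicate 1 (edgeR adjusted p = 0.0828) or DMSO replicate 2 (0.0663).

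The supply of flavin and of matrix NADH was covered by further lists, again in CQ against DMSO, where 8.39% of all tested features fell and 4.92% rose. Of 10 flavin genes MCH5, the riboflavin importer, rose by 2.23 (edgeR adjusted p = 2.21e-05) and RIB1 by 0.80, and RIB4 fell by 1.04. RIB1 lost its call without CQ replicate 1, DMSO replicate 1 or either inactive thione replicate, and RIB4 without DMSO replicate 2. Of 13 other mitochondrial flavoproteins 6 fell, fewer in some fits without 1 library, and 7 did not pass, with a median of -0.46. Most of these falls are not new: SDH1, PUT1, DLD2 and COQ6 were counted above, and LPD1 is also a producer of matrix NADH. ILV2 is in no other list. ILV2 lost its call without CQ replicate 1 or either DMSO replicate, and LPD1 without CQ replicate 2 or either DMSO replicate. Of 12 producers of matrix NADH 5 fell (4 to 6 without 1 library), among them KGD1 (-2.65), KGD2 (-2.001) and IDH1 (-1.23) of the citric acid cycle. Among 14 regulators AFT1, an activator of iron uptake genes, rose by 1.66 and AFT2 by 0.77, beside TIS11, and CTH1 fell by 0.57, beside HAP4. AFT2 lost its call without CQ replicate 2, DMSO replicate 1 or DMSO replicate 2, and CTH1 in every fit without a library except that without CQ replicate 2. Of the mitochondrially encoded genes 1 of 8 passed the filter on low counts, so their levels were not read.

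**Figure D5:**
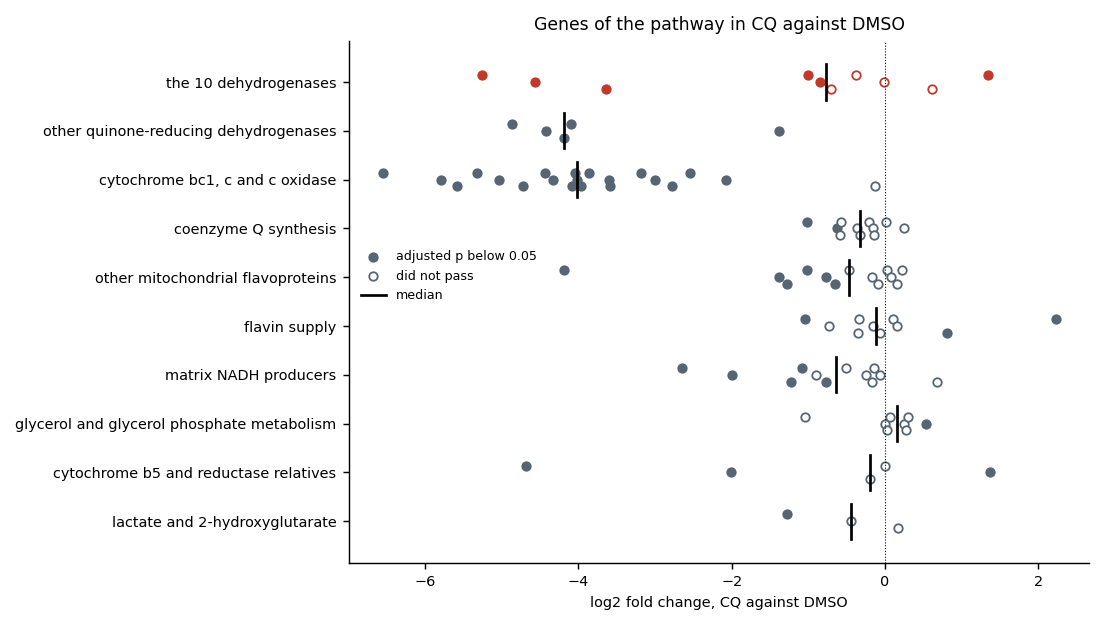
Log2 fold change in CQ against DMSO of each tested gene by list, with the 10 dehydrogenases on top in red; filled points passed the threshold and bars mark medians. The other quinone-reducing dehydrogenases (median -4.19) and the cytochrome bc1, c and c oxidase genes (median -4.02) lie left of the median of the 10 genes (-0.77).

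In the comparisons that leave out CQ, TIS11 and the alpha-cell marker SAG1 were the genes of all the lists that passed. TIS11 was the regulator that rose with the active thione against DMSO (2.56, edgeR adjusted p = 0.0048) and against the inactive thione (2.61, adjusted p = 0.00499). Without DMSO replicate 1 the value against DMSO was 2.34 and did not pass (edgeR adjusted p = 0.0832). The call against the inactive thione was lost without active thione replicate 2 (0.0557) and without inactive thione replicate 1 (edgeR adjusted p = 0.1). SAG1, the alpha-agglutinin of the cell surface, fell in active thione against DMSO (-1.23, edgeR adjusted p = 0.0168), a call lost without active thione replicate 2 or either DMSO replicate. Of the 83 other genes in the lists on electron transfer, substrates and cofactors, 0 passed in edgeR in these 3 comparisons. An unadjusted p below 0.05 was reached by 9 (10.8%) in active thione against DMSO, by 15 (18.1%) in inactive thione against DMSO and by 7 (8.43%) between the thiones, where 13.8%, 13% and 3.7% of all features reached it. DESeq2 called 2, 3 and 1 of them.

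The features most like each gene in pattern were ranked by the root mean square difference of centred log2 CPM over the 8 libraries, among 5054 candidates with an average log2 CPM of at least 3. NDI1 was nearest to COX6 (0.124) and SDH3 (0.132), where the median candidate was at 1.98. CIR2 was nearest to SDH2 (0.162) and COX26 (0.25), and CYB2 to QCR2 (0.186) and CTT1 (0.191). These 6 neighbours had log2 fold changes from -5.79 to -3.59 in CQ against DMSO, as their choice by pattern over the same libraries requires. All 6 held at least 1 TATTTAT match. So did 40 of the 42 tested nuclear genes with a log2 fold change below -3, so these matches are not a separate result. Of the 14 neighbours of the 7 genes without a match, 8 held at least 1. The other genes had neighbours with smaller changes: DLD1 was nearest to RPE1 and PHB1, MCR1 to HFD1 and NSG2, AIM45 to AIT1 and SHE10, CIR1 to MRX21 and TIM13, NDE1 to YML020W and YIL102C-A. NDE2 was nearest to RTN2 and HBT1 and GUT2 to RTC3 and GDB1, with neighbour values from 0.50 to 1.30 in CQ against DMSO. Among the 10 themselves, NDE2 and GUT2 were each other's nearest, as were CIR1 and AIM45, DLD1 and MCR1, and NDI1 and CYB2. Replicate 1 of NDE2 was below replicate 2 in each group, as in GUT2, with log2 differences of -0.43 (CQ), -0.30 (active thione), -0.29 (inactive thione) and -0.18 (DMSO). The distance between NDE2 and GUT2 includes this shared difference. These distances describe 8 libraries that share 4 treatments.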

How the data were processed

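Libraries came from total RNA (hot acid phenol, PrepX kit, Illumina HiSeq), per the labels' protocols. The authors deposited raw read counts per feature, made with TopHat, TopHat2 2.1.1, HTSeq and DESeq on sacCer3, per the submitters' processing notes; annotation, counting mode and strandedness were not given in the sources used here. The same table holds a normalized signal, which the authors made by dividing each count by a size factor per library; it served only to check those factors, equal to recomputed ones to 4 decimals in 7 libraries. Of the 7122 features 725 have no count, and 4 empty lines were not used. RefSeq R64 named 6045 features and gave positions and sequences; no gene of the 10 overlaps another there.

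The counts were tested with edgeR 4.0.16 in R 4.3.3 (two-sided quasi-likelihood test, TMM, filterByExpr, 1 term per group, all 8 libraries in 1 fit). The filter kept 5696 features, over which p-values were adjusted (Benjamini-Hochberg, threshold 0.05); the common biological coefficient of variation was 0.1526. Replicate pairs differed by more than sampling noise (chi-square per degree of freedom 21.4 to 95.6). The p-values weigh each group difference against the spread between replicates, estimated from all 8 libraries together. The procedure was tested on simulated data. The 13 alternatives were RLE size factors, no filter, a replicate block, the compared groups only, DESeq2 1.42.0, and each library left out in turn, where a lone library is assumed to vary like the other groups. Named genes are the 10, of each list up to 3 with the smallest p in CQ against DMSO and any called with a thione, and 2 nearest features per gene. Genes named beyond that rule (the whole of counts of 5 or fewer, COX5B, LPD1 and ILV2) were chosen after their values were seen. The 10 genes and the lists were chosen with earlier results of these data known.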

Additional observations from a re-analysis of the deposited data

How the results depend on the processing

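Of 780 values of the 10 genes under 13 alternatives, 708 kept their direction and side of the threshold, 41 lost a call, 8 gained one and 23 changed sign. The values that changed sign were all uncalled, at most 0.32 in size, with edgeR adjusted p of at least 0.675. NDI1, CIR2, CYB2 and DLD1 kept their calls in CQ against DMSO throughout, with adjusted p of at most 0.000379, 5.11e-05, 0.000322 and 0.0293. The cause of the changes below was not tested.

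The labels do not tie the replicate numbers to a shared batch, and same-numbered libraries did not deviate together in every pair of groups, so the samples were not taken as paired: deviations of same-numbered libraries correlated at 0.21 (CQ and active thione), -0.09 (CQ and inactive thione), -0.15 (CQ and DMSO), 0.33 (both thiones), 0.39 (active thione and DMSO) and 0.43 (inactive thione and DMSO). With the replicate block GUT2 passed in CQ against DMSO (0.60, adjusted p = 0.0119) and in CQ against active thione (0.67, adjusted p = 0.00572); in each of the 4 groups its replicate 1 had the lower level. Over all features the block gave 174 calls in active thione against DMSO, 54 in inactive thione against DMSO and 13 between the thiones, against 78, 9 and 7. With the compared groups only, active thione against DMSO gave 133 calls, and 5 of the 10 genes passed in CQ against active thione, against 8. DESeq2 gave 183 calls for the active thione and 81 for the inactive thione against DMSO, and 25 between the thiones. MCR1 in CQ against inactive thione did not pass with RLE factors (-0.85, edgeR adjusted p = 0.0513). AIM45 in inactive thione against DMSO, 0.02 as reported, was -0.00021 with RLE factors, -0.0080 with no filter and -0.0018 with those groups only.

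Uncalled values that changed sign with a library left out ranged as follows. In CQ against DMSO, CIR1 ran from -0.16 to 0.13. In active thione against DMSO, NDE1 ran from -0.093 to 0.017, GUT2 from -0.51 to 0.32 and CIR2 from -0.16 to 0.13. In inactive thione against DMSO, NDI1 ran from -0.27 to 0.0043, AIM45 from -0.039 to 0.092 and CYB2 from -0.33 to 0.13. Between the thiones, NDI1 ran from -0.085 to 0.037, DLD1 from -0.011 to 0.085 and MCR1 from -0.054 to 0.043. In CQ against inactive thione, GUT2 ran from -0.44 to 0.27.

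Without 1 library, the features called numbered 367 to 1419 in CQ against DMSO, 4 to 108 in active thione against DMSO, 1 to 18 in inactive thione against DMSO, 3 to 10 between the thiones, 585 to 1593 in CQ against active thione and 458 to 1126 in CQ against inactive thione. The lowest and highest counts in CQ against DMSO came without DMSO replicate 1 and without CQ replicate 2. Of the 10 genes 4 to 7, 0, 0, 0, 4 to 8 and 4 to 6 passed in those comparisons. CIR2 with CQ had the fewest counts of the 10 genes, 82 and 58, and its fold has an SE of 0.21.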
